A study of Drosophila melanogaster with 4 samples.

Results

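Translation efficiency, the footprint value of a gene relative to its mRNA value, was described in ovaries of fruit flies (Drosophila melanogaster) lacking NSUN2. It was taken as log2((footprint value + 1)/(mRNA value + 1)) for every gene with a knockout mRNA value of at least 5, which kept 2774 of the 2860 genes listed and left out 86. The knockout ovaries gave 1 footprint library and 1 poly(A) mRNA library. The wild-type ovaries used for comparison gave 1 library of each kind too, and flies of both genotypes are labelled with strain W1118. The labels name no allele, age or mating state, and do not say how many animals were pooled. With 1 library a group there is no replicate check and no test, so a difference between genotypes was called by size alone.

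A translating ribosome shields a short stretch of the message from nuclease, and sequencing these stretches shows where ribosomes sit. A message with many footprints for its amount is being read by many ribosomes, or by ribosomes that move slowly or stall, and footprints alone do not separate these. NSUN2 is a methyltransferase that places 5-methylcytosine (m5C) on tRNAs and on some mRNAs. In the fly ovary many messages are made by the nurse cells and stored in the oocyte in a repressed state until later development, so control of translation is a large part of the biology of this tissue. Follicle cells and sheath muscle add their own messages to a whole ovary. A lower value in bulk ovary can come from fewer cells of a type or from less RNA in each cell, and these cannot be told apart here.

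Values are the authors' depth- and length-scaled signal for each gene, and no source used here names the scaling. Reads behind the values were worked out from the values themselves and are lower limits. They came to 2521130 knockout footprint reads and 13054441 knockout mRNA reads over all listed genes, against 1323478 and 5094373 in wild type. The median gene kept had 317.5 footprint reads and 2880.5 mRNA reads in the knockout, and 2466 of the 2774 genes had at least 50 footprint reads. The 95% intervals given for ratios reflect counting error alone, and reads were not collapsed by molecular identifiers. The intervals take the lower-limit reads as the counts, so they are too wide where those reads are too few. Only 18 of the genes could be paired with a symbol, so the identity of the tissue could not be checked against marker genes, and neither the level of the targeted gene nor that of other ovary cell types was determined.

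Among the genes kept, messages in the knockout ovary differed widely in how many footprints they carried for their amount. Log2 translation efficiency ran from -5.17 to 4.84 with a median of -0.19 (SD across genes 1.52, n = 2774 genes). The gene at the 90th percentile stood 15.4-fold above the gene at the 10th, and the gene at the 75th 4.17-fold above the gene at the 25th. Footprint values spread more than mRNA values did, with a 27.8-fold distance between the 10th and 90th percentiles against 9.27-fold (each value + 1). Within 2-fold of the median lay 1354 genes (48.8%). A further 700 genes (25.2%) stood at least 2-fold above the median and 720 (26%) at least 2-fold below it, of which 256 and 280 were at least 4-fold away. The median counting SD of the log2 efficiency was 0.087, small beside the SD of 1.52 across genes.

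The genes nearest to the minimum on either side stood above the median efficiency. FBgn0261610, just inside it, had an mRNA value of 5.04 and a log2 efficiency of 0.28, and FBgn0041111 had 5.04 and 1.19. Just outside, FBgn0259234 had 4.99 and 0.73, and FBgn0039214 had 4.99 and 1.34. The 86 genes under the minimum had a median log2 efficiency of 0.34.

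**Figure D1:**
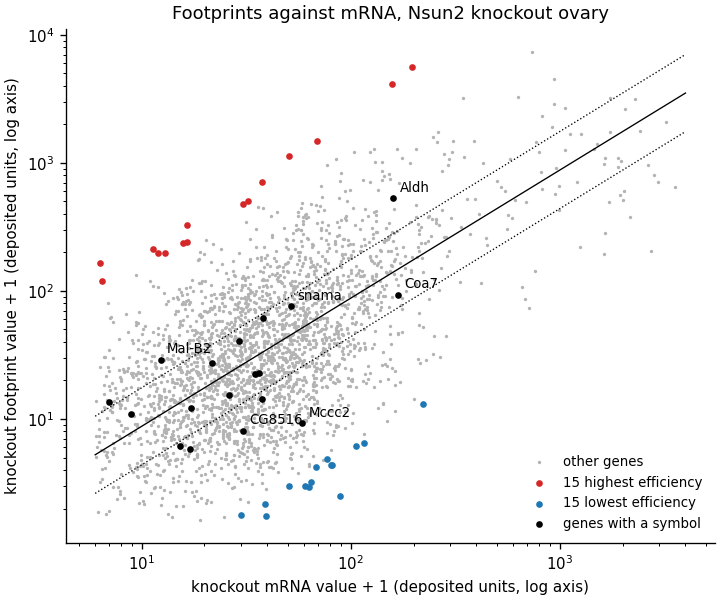
Knockout footprint value + 1 (vertical, log axis) against knockout mRNA value + 1 (horizontal, log axis) for 2774 genes, 1 point a gene. The solid line is the median log2 efficiency of -0.19 and the dotted lines lie 2-fold to each side. The 15 genes of highest efficiency (red) have mRNA values from 5.33 to 195 and the 15 of lowest efficiency (blue) from 28.7 to 221. Neither end holds a message at an mRNA value of 250 or above.

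Footprints were concentrated on fewer genes than mRNA was. The 277 genes with the highest footprint values held 64.3% of the summed footprint values, and the 277 with the highest mRNA values held 55.9% of the summed mRNA values. Of those 277 genes with the highest footprints, 149 (53.8%) were also among the 277 with the highest mRNA and 126 (45.5%) among the 277 with the highest efficiency. Of the 277 with the highest mRNA, 30 were among the 277 with the highest efficiency. Each of these groups holds 277 of all 2774 genes, so the 30 lie near the share over all genes.

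At the top, 15 genes reached log2 efficiencies from 3.87 to 4.84. FBgn0004907 and FBgn0000173 were abundant messages, with mRNA values of 195 and 157 against a 90th percentile of 117 for all genes kept. The 15 genes had a median mRNA value of 15.6 against 34.9 for all genes kept, and a median footprint value of 323 against 29.2. Efficiency ranked them, so these distances describe the choice and are no test of it. Each rested on 643 to 12445 footprint reads. Their highest listed m5C levels ran from 0.104 to 0.874, and 2 of the 15 were at 0.6 or above, where 487 of all 2774 genes (17.6%) stood. None of them has a symbol in the sources used here.

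FBgn0004907 stood first, with a footprint value of 5622 and an mRNA value of 195 in the knockout, and 5120 and 216 in wild type. Its knockout footprint value was 28.8 times its mRNA value (28.1 to 29.6), and it had the second highest footprint value of all genes kept. It also carried the highest listed m5C level of the 15 genes, 0.874.

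FBgn0013343 came next, with a scarce message and a footprint value above the median of 29.2 for all genes kept. Its mRNA value was 5.33 in the knockout and 2.56 in wild type, while its footprint values were 165 and 149. The knockout ratio was 31.0 (27.6 to 35.0), and the pseudocount brought its log2 efficiency to 4.72, under that of FBgn0004907. Its listed m5C level was 0.109, near the lowest in the tables.

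FBgn0000173 combined an mRNA value of 157 with a footprint value of 4131, for a log2 efficiency of 4.71 in the knockout against 3.42 in wild type. In wild type its mRNA value was 174 and its footprint value 1869, so its footprint values were further apart than its mRNA values. FBgn0004587 showed a similar distance, with a log2 efficiency of 4.42 in the knockout and 2.95 in wild type. There both assays differed, with footprint values of 1486 and 1064 and mRNA values of 68.2 and 137, in that order.

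At the bottom, 15 genes had log2 efficiencies from -5.17 to -3.98. Their messages were present, with a median mRNA value of 67.5 against 34.9 for all genes kept, and their footprint values lay between 0.753 and 11.98. The lowest of these rested on few reads, with at least 1 to 102 footprint reads a gene and a median of 17. None of the 15 has a symbol here, and 3 were listed at an m5C level of 0.6 or above, where 17.6% of all genes kept stood.

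FBgn0032191 stood last, with a footprint value of 1.49 against an mRNA value of 88.2 in the knockout, and 4.60 against 83.4 in wild type. Its knockout footprint value was 0.0168 times its mRNA value (0.00896 to 0.0288), from at least 13 footprint reads. FBgn0039860 had a footprint value of 0.753 in the knockout and 4.24 in wild type, at mRNA values of 38.4 and 39.2. At least 5 footprint reads stood behind the knockout value, and its ratio of 0.0196 had an interval from 0.00635 to 0.0458.

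FBgn0004643 was one of the better measured genes of this group, with at least 71 knockout footprint reads. Its footprint value was 5.52 in the knockout and 6.10 in wild type, at mRNA values of 115 and 119, and its log2 efficiency was -4.16 and -4.07. FBgn0016672 had footprint values of 2.24 and 3.91 at mRNA values of 63.5 and 78.6, and a listed m5C level of 0.848. FBgn0033457 had the highest m5C level among the 15, 0.924, with a log2 efficiency of -4.01. High listed m5C levels thus occurred at both ends of the range. At 0.6 or above were 20% of the 15 lowest and 13.3% of the 15 highest genes, near the 17.6% of all genes kept.

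The wider ends differed in the lengths worked out from the values, whose limits are given further below. The 277 genes of highest efficiency had a median coding length of 596 codons, close to the 581 of all genes kept, and the 277 of lowest efficiency 450. Outside the coding part their exons had a median of 971 and 527 bases, against 652 for all genes kept. The share of genes at an m5C level of 0.6 or above was 18.1% in the upper group and 21.7% in the lower group, against 17.6% of all genes kept.

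The 18 genes with a symbol, all of them protein-coding in the gene table, were described because they could be named. They lay across the middle of the range, with 8 above and 10 below the median of all genes kept and a median log2 efficiency of -0.57. Of the 18, 3 stood at least 2-fold above the median and 5 at least 2-fold below it, against 25.2% and 26% of all genes, and the remaining 10 lay within 2-fold. In every one of them the knockout and wild-type efficiencies were less than 2-fold apart. Of the 2744 genes compared further below, 3.02% were at least 2-fold above wild type and 5.47% at least 2-fold below it.

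**Figure D2:**
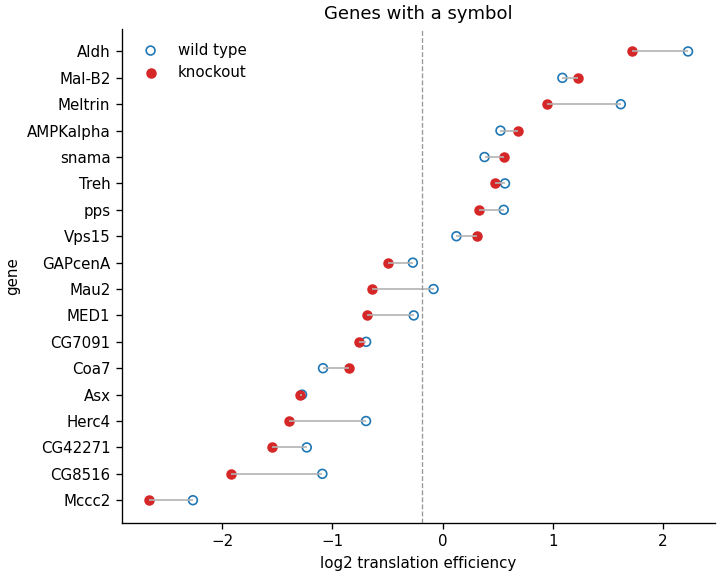
Log2 translation efficiency (horizontal) of the 18 genes with a symbol in the knockout (filled) and in wild type (open), 1 library each and so without error bars. The dashed line is the knockout median of all genes kept, -0.19. The order runs from Aldh at 1.72 to Mccc2 at -2.66 in the knockout, and each pair of points lies less than 1 unit apart.

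Among enzymes of metabolism, the mitochondrial aldehyde dehydrogenase Aldh and the leucine-breakdown carboxylase subunit Mccc2 marked the 2 ends. Aldh had a footprint value of 526 and an mRNA value of 159 in the knockout, and 364 and 77.04 in wild type. Its knockout ratio of 3.30 (3.19 to 3.41) placed it above 89.6% of the genes kept, counting itself. Mccc2 had a footprint value of 8.24 and an mRNA value of 57.6 in the knockout, and 11.3 and 58.2 in wild type. Its ratio of 0.143 (0.114 to 0.177) placed it at percentile 5.34, and it was the only gene with a symbol among the 277 of lowest efficiency.

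The sugar-splitting enzymes stood above the median. Mal-B2, a maltase, had a footprint value of 27.8 and an mRNA value of 11.3, a ratio of 2.46 (2.13 to 2.82), at a listed m5C level of 0.628. Treh, the enzyme that cleaves the blood sugar trehalose, had 39.6 and 28.3, a ratio of 1.40 (1.26 to 1.55). In wild type their log2 efficiencies were 1.09 and 0.57, next to 1.23 and 0.47 in the knockout.

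AMPKalpha encodes the catalytic part of a kinase that senses low energy, and it had 60.3 and 37.1, for a log2 efficiency of 0.68 against 0.52 in wild type. Coa7, named for cytochrome c oxidase assembly from work in human cells, had the highest mRNA value of the 18, 167, with a footprint value of 91.8. Its log2 efficiency was -0.85 in the knockout and -1.09 in wild type.

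The genes of chromatin and transcription stood near or below the median, except pps, which encodes a partner of the splicing protein Sans-fille. The pps message, at the highest listed m5C level of the 18 genes (0.743), had a footprint value of 26.3, an mRNA value of 20.8 and a log2 efficiency of 0.33. Mau2, which helps load cohesin onto DNA, had a log2 efficiency of -0.64. MED1, a subunit of the Mediator complex that links activators to RNA polymerase, had -0.68. The Polycomb-group gene Asx had -1.30 from at least 31 footprint reads, at a footprint value of 5.20 and an mRNA value of 14.2. In wild type the log2 efficiencies of pps, Mau2, MED1 and Asx were 0.55, -0.08, -0.26 and -1.28, so the order of these genes was the same in both genotypes.

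The remaining genes with a symbol spanned from Meltrin to CG8516. Meltrin, which encodes a metalloprotease of the ADAM family, had 12.5 footprint and 6.01 mRNA units, for a log2 efficiency of 0.95. The RING finger gene snama had 0.55 and Vps15, part of the lipid kinase complex of endosomes and autophagy, had 0.31. GAPcenA, a Rab regulator known from human cells, had -0.50. Herc4, a ubiquitin ligase gene, had -1.40 from at least 14 footprint reads, with a ratio of 0.363 (0.198 to 0.611). CG7091, CG42271 and CG8516 had -0.76, -1.55 and -1.92.

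Messages of low abundance carried more footprints for their amount than messages of middle abundance. Footprint values followed mRNA values across genes with a Spearman rho of 0.534 (Pearson r 0.612 on the log2 scale). Log2 efficiency had a rho of 0.718 with footprints and of -0.144 with mRNA (r -0.137). These are descriptions across 2774 genes of the same libraries, genes are not independent replicates, and both values enter the ratio, the footprint value with the wider spread (SD 1.91 on the log2 scale against 1.38 for mRNA). Against the wild-type mRNA value, which does not enter the knockout ratio, rho was -0.159.

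By mRNA level, the median log2 efficiency was 0.63 in the 204 genes with values from 5 to 10 and 0.03 in the 752 genes from 10 to 25. It was -0.44 in the 849 genes from 25 to 50, -0.42 in the 620 from 50 to 100, -0.20 in the 256 from 100 to 250 and -0.12 in the 93 at 250 or above. The median was thus highest among scarce messages and lower at the middle levels. At 250 or above its 95% interval, from the ranks of the genes, ran from -0.60 to 0.30 and held the medians of the middle levels. In wild type the median of those 93 genes was -0.37, and that of the 849 genes from 25 to 50 was -0.33. Of the genes with the lowest mRNA levels 43.6% were at least 2-fold above the median of all genes and 12.3% at least 2-fold below it. For the 849 genes from 25 to 50 these shares were 21.2% and 30.7%. With the mRNA minimum at 20, which removes the low levels, the rho of efficiency and mRNA was -0.03.

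The spread of efficiency was wider at higher mRNA levels. The fold between the 10th and 90th percentiles was 11.2 in the genes from 5 to 10 and 11.8 in those from 10 to 25, then 14.5, 19.5, 18.9 and 21.3 in the 4 levels above. The 1 added to each value bounds efficiency from below, most tightly at low mRNA values. The lowest log2 efficiency was -2.24 in the genes from 5 to 10 and -5.17 in those from 50 to 100. The part of this bound in the spread was not tested. Coding length ran along with mRNA level, with a median of 943.5 codons at the lowest mRNA level and 250 codons at the highest. Its part in the relation of efficiency to mRNA was not tested apart from the ranks given further below.

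**Figure D3:**
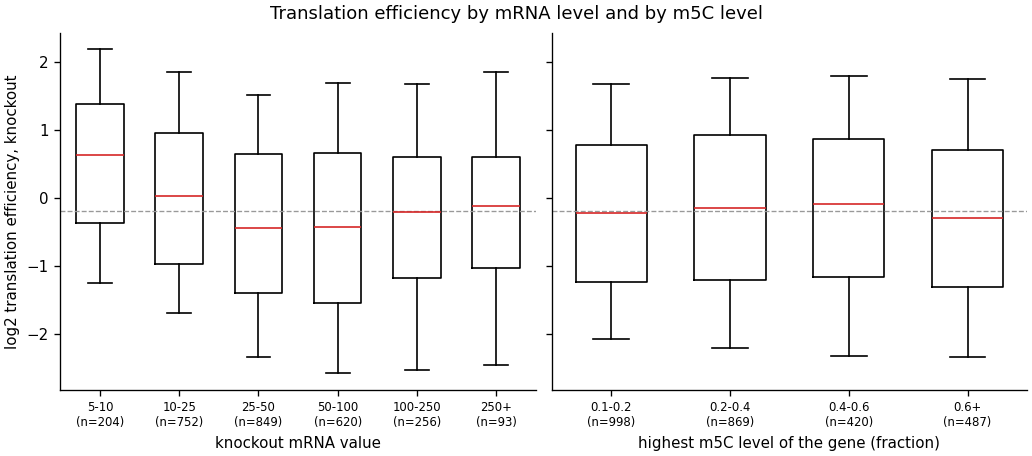
Log2 translation efficiency in the knockout by mRNA value (left) and by the highest listed m5C level of the gene (right), with the number of genes under each box. Boxes span the 25th to 75th percentiles with the median in red, whiskers reach the 10th and 90th percentiles, and the dashed line is the median of all genes, -0.19. The medians by mRNA level are 0.63 at the lowest level and between -0.44 and 0.03 at the others, and those by m5C level stay between -0.30 and -0.08.

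The messages at the very top of the mRNA range were mostly below the median in efficiency. The 5 with the highest mRNA values, FBgn0010078, FBgn0030136, FBgn0261606, FBgn0002607 and FBgn0031980, had mRNA values from 2724 to 3564 and short coding parts of 65 to 203 codons. Their log2 efficiencies were -2.47, -0.63, -2.08, -1.83 and -3.72, all under the median of -0.19. FBgn0031980 had a footprint value of 205 at an mRNA value of 2724 in the knockout, and 345 at 2466 in wild type. With an edge chosen after the values were seen, 31 genes had an mRNA value of at least 1000, with a median log2 efficiency of -0.81, and 13 of them were at least 2-fold below the median of all genes and 2 at least 2-fold above.

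Among abundant messages the short and the long ones had different medians. Of the 93 genes with an mRNA value of at least 250, the 46 with under 250 codons had a median log2 efficiency of -0.61, and the 47 with 250 codons or more had 0.25. In wild type the same sets had -0.62 and -0.28. The edge of 250 codons was also chosen after the values were seen, so this split is a description only.

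The 5 genes with the most footprints were all above the median efficiency, which the choice by footprints, the upper term of the ratio, favours. FBgn0000042 led with a footprint value of 7276 at an mRNA value of 735, a log2 efficiency of 3.31 against 3.02 in wild type. FBgn0004432 had 4502 at 941, a log2 efficiency of 2.26, and FBgn0020238 had 3255 at 632, a log2 efficiency of 2.36. The other two of the 5 highest were FBgn0004907 and FBgn0000173, which are also among the 15 genes of highest efficiency.

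The listed m5C level had almost no rank relation to efficiency in the knockout. The level is given as the highest of each gene, runs from 0.1 to 0.991 with a median of 0.269, and is identical in all 4 tables. No gene kept has a level under 0.1. Messages without m5C, or with less of it, could thus not be compared with these. No source used here gives the sample in which it was measured or its coverage, so it has no interval, and it cannot be read as the level left in the knockout. Its rho with log2 efficiency was -0.007 (r -0.020), and with mRNA level taken out of both ranks it was -0.023. With mRNA level and both lengths taken out it was -0.047. In wild type, over the same genes, rho was 0.010.

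The median log2 efficiency was -0.22 in the 998 genes with levels from 0.1 to 0.2 and -0.14 in the 869 from 0.2 to 0.4. It was -0.08 in the 420 from 0.4 to 0.6 and -0.30 in the 487 at 0.6 or above. The 95% interval of the median, from the ranks of the genes in a group, ran from -0.47 to -0.14 at 0.6 or above, and from -0.26 to 0.04 for levels from 0.4 to 0.6. These intervals overlap, they treat genes as independent, and no order of the groups was tested. The wild-type medians over the same groups were -0.24, -0.14, -0.12 and -0.21. The shares at least 2-fold above the median ran from 22.6% to 27.5% and the shares at least 2-fold below it from 24.3% to 27.7%, close to the 25.2% and 26% of all genes.

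Genes with higher m5C levels had somewhat less mRNA, with a rho of -0.107, and somewhat fewer footprints, with a rho of -0.083. They also had longer coding parts, with a rho of 0.159. The level is a maximum over the gene, and no source used here gives the number of sites behind it.

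The genes with the highest listed levels had no common efficiency. FBgn0032154, at 0.991, had a footprint value of 5.30 and an mRNA value of 14.3, a log2 efficiency of -1.28. FBgn0038424, at 0.985, had 33.2 and 30.1, a log2 efficiency of 0.13. FBgn0028380, at 0.981, had 19.0 and 59.3, a log2 efficiency of -1.59. FBgn0030266 and FBgn0004655, both at 0.978, had log2 efficiencies of -1.13 and 0.46. So 3 of the 5 were below the median of all genes and 2 above it.

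Long genes had somewhat higher efficiencies than short ones. Coding length, in units taken to be codons, and exon length in bases were worked out from the values and are lower limits, so some long genes may stand among the short ones. The length outside the coding part is the exon length less 3 bases a codon, so it is no lower limit. It is too long where the coding length alone is too short. The Spearman correlation of log2 efficiency with coding length was 0.145, and 0.1003 with mRNA level taken out of both ranks. With the exon length outside the coding part it was 0.149, and 0.122 with mRNA level and coding length taken out. For 405 of all listed genes the exon length first found was under 3 bases a codon and was raised to the smallest length that was not, so their length outside the coding part is set by that bound. Both lengths were used to scale the deposited values, the footprints by the first and the mRNA by the sum, so each enters the efficiency by construction and its part in these relations was not tested.

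In 4 groups of near equal size by coding length, the median log2 efficiency was -0.44 in the 691 genes with under 350 codons and 0.22 in the 694 genes with 964 or more. The share of genes at least 2-fold below the median of all genes was 31.1% in the shortest group and 14.6% in the longest. The fold between the 10th and 90th percentiles was 18.8 in the shortest group and 9.25 in the longest. The median mRNA value was 54.4 in the shortest group and 23.1 in the longest, and the spread was narrower at low mRNA levels too. The part of mRNA level in this difference of spread was not tested. By exon length outside the coding part, the medians were -0.48, -0.17, -0.22 and 0.11 from the shortest to the longest group.

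**Figure D4:**
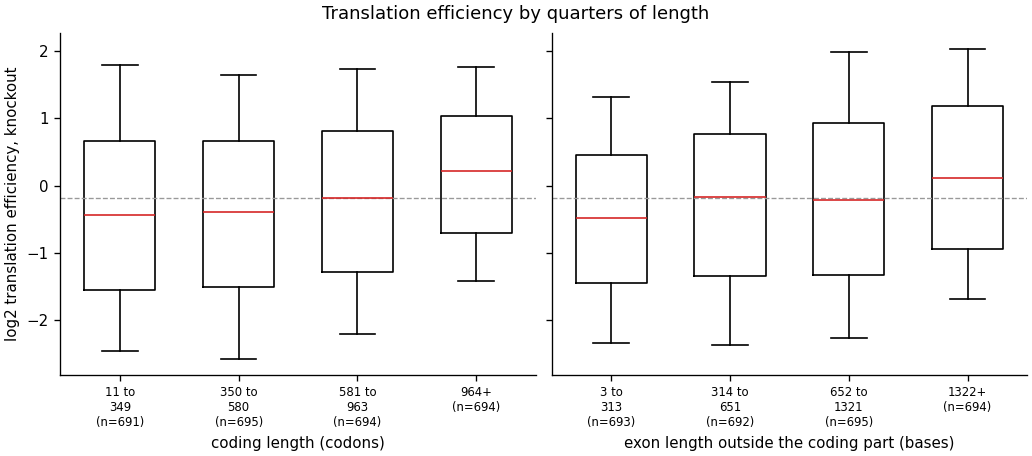
Log2 translation efficiency in the knockout by coding length in codons (left) and by exon length outside the coding part in bases (right), in 4 groups of near equal size with the number of genes under each. Boxes span the 25th to 75th percentiles with the median in red, whiskers reach the 10th and 90th percentiles, and the dashed line is the median of all genes, -0.19. The longest coding group has the highest median, 0.22, and the narrowest spread.

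The order of genes by efficiency was much the same with and without NSUN2. Over the 2744 genes with an mRNA value of at least 5 in both genotypes, rho was 0.926 (r 0.925). The libraries are separate, but the lengths and the processing are shared, which makes such a correlation higher. The next values cover genes with an mRNA value of at least 5 in that genotype, 2771 in wild type and 2774 in the knockout. The wild-type log2 efficiency had a median of -0.21, an SD of 1.56 and a fold of 16.5 between the 10th and 90th percentiles. In the knockout these were -0.19, 1.52 and 15.4. Footprints followed mRNA with a rho of 0.534 in the knockout against 0.477 in wild type, and efficiency followed mRNA with a rho of -0.144 against -0.241. These differences between genotypes rest on 1 library each and were not tested.

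Genes at the ends in the knockout were at the ends in wild type too. All 15 genes of highest knockout efficiency were among the highest 278 of the 2774 genes by wild-type efficiency, where their log2 values ran from 2.95 to 5.40. All 15 of lowest knockout efficiency were among the lowest 277, from -4.32 to -2.85. Of the 277 highest genes in the knockout 204 (73.6%) were among the 278 highest in wild type, and of the 277 lowest 206 (74.4%) were among the lowest 277. Of the 15 lowest, 14 had a lower efficiency in the knockout than in wild type, and of the 15 highest, 9 had a higher one. Since the knockout values chose these genes, a lean away from the wild type is built into the choice.

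**Figure D5:**
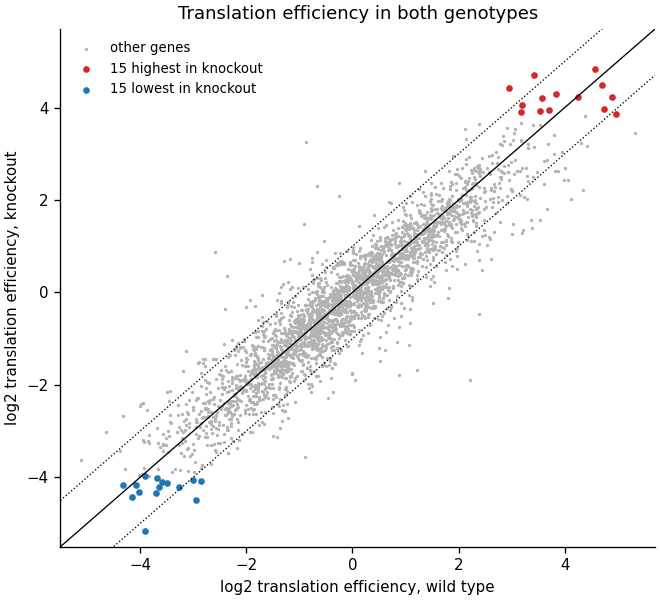
Log2 translation efficiency in the knockout (vertical) against wild type (horizontal) for genes with an mRNA value of at least 5 in both, 1 point a gene. The solid line is equality and the dotted lines lie 1 log2 unit, or 2-fold, to each side. Most genes lie near the line (rho 0.926), with 83 genes at or above the upper dotted line and 150 at or below the lower one.

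The median difference between knockout and wild-type log2 efficiency was -0.05 with an SD of 0.60 across genes, and 1022 genes (37.2%) lay within 0.25 of equality. Efficiency was higher in the knockout for 1254 genes (45.7%) and lower for 1490. At least 2-fold higher were 83 genes (3.02%) and at least 2-fold lower 150 (5.47%). With each library centred on its median, these counts were 128 and 108, so which direction held more genes depended on the scaling. With the mRNA minimum at 20 they were 54 and 76, and with a pseudocount of 5 the lower count was 93.

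The genes furthest from wild type differed in mRNA, in footprints or in both. FBgn0034579, furthest above wild type, had mRNA values of 17.7 in the knockout and 72.4 in wild type and footprint values of 177 and 39.3. Its log2 efficiency was 3.25 and -0.87. FBgn0031703 had mRNA values of 5.66 and 10.7 and footprint values of 11.2 and 0.951, so there the footprints were further apart than the mRNA. These footprint values rested on at least 118 reads in the knockout and at least 5 in wild type. FBgn0015737, furthest below wild type, had mRNA values of 92.8 and 8.95 and footprint values of 24.2 and 45.4. Its log2 efficiency was -1.90 and 2.22. FBgn0037203 had mRNA values of 116 and 7.33 and footprint values of 35.5 and 18.3, so both of its values were higher in the knockout and its efficiency lower.

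Over 2744 genes, rho between m5C level and the knockout minus wild-type difference in log2 efficiency was -0.049, further from 0 than its rho of -0.007 with the knockout efficiency. The 487 genes at 0.6 or above had a median log2 efficiency of -0.30 in the knockout and -0.21 in wild type. The 420 genes from 0.4 to 0.6 had -0.08 and -0.12, and so lay the other way. The 869 genes from 0.2 to 0.4 had -0.14 in both, and the 998 genes from 0.1 to 0.2 had -0.22 and -0.24.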

How the data were processed

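Per the labels' protocols, footprints came from micrococcal nuclease digestion, the single-ribosome fraction and fragments of 28 to 30 nt after removal of ribosomal RNA, and mRNA from poly(A) selected RNA in a strand-keeping library. Per the submitters' processing notes, cutadapt, TopHat2, HTSeq and the dm3 build were used. For parameters, annotation and the rule that chose the genes, nothing is given in the sources used here. The signal per gene, as deposited, is scaled to depth and length. The m5C level is a deposited fraction, the highest of the gene per the file headers.

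From these values log2((footprint + 1)/(mRNA + 1)) was computed, which understates differences of genes with low values. Within an assay a gene's values are whole reads times a constant over a length. The constant between libraries was set so that small whole factors were as frequent in the reads of one library as of the other, and the smallest whole length giving whole reads in both was taken (relative tolerance 2e-09), with exon length held to at least 3 bases a codon. This doubled the constants first found (wild type over knockout from 1.01 to 2.01 for footprints, from 1.29 to 2.58 for mRNA), with which wild-type reads were even in 65.8% and 55.1% of the genes whose reads could be set in ratio, and knockout reads in 17.7% and 23.0%. Reads, depths and intervals rest on that choice, under which knockout over wild-type depth came to 1.90 for footprints and 2.56 for mRNA. Ratio intervals are exact binomial intervals (95%) with these lower-limit reads taken as the counts. The recovery was also run on simulated data. The lengths and depth ratios of that simulation were set close to those recovered here, so it is no separate check of them. Software was Python 3.11.15, numpy 2.4.6, pandas 2.3.3, scipy 1.17.1 and matplotlib 3.10.9.

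Genes and lists were chosen with earlier results of these data known. The text names the 15 genes at each end, those furthest from wild type, the 5 highest in mRNA, footprints and m5C level, from which the examples were taken, and genes with a symbol. Symbols came from a Release 6 gene table for 18 genes. The 14 gene lists, cell type markers included, matched 0 genes and were not analysed here. Alternatives were other pseudocounts (0.1 and 5), mRNA minimums (none and 20), a footprint minimum of 5, centring, and mRNA level taken out of the ranks.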

Additional observations from a re-analysis of the deposited data

How the results depend on the processing

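Leaving aside how many of the 15 genes at each end stayed, 58 values were recomputed. Of these, 52 stayed within 1.5 times the reported count or fold, or within 0.05 of the reported rho, and 6 did not. The 52 include the rho of footprints and mRNA at other pseudocounts, which cannot change because ranks ignore an added constant. The rho of efficiency and m5C level, reported as -0.007, was 0.0087 with a footprint minimum of 5, so its sign is not settled. With a pseudocount of 5 the genes at least 2-fold below wild type numbered 93, since a larger pseudocount draws low values together, and 9 of the 15 lowest genes stayed. With an mRNA minimum of 20, and so fewer genes, the rho of efficiency and mRNA was -0.0293, the genes at least 2-fold above and below wild type were 54 and 76, and 7 of the 15 highest genes stayed. With a footprint minimum of 5 the rho of efficiency and mRNA was -0.236, a minimum that by construction leaves out inefficient genes at low mRNA. With each library centred on its median, 128 genes were at least 2-fold above wild type, and the cause was not tested. Alternatives for coding and exon length, and the edges of 250 codons and of mRNA values of 1000, were chosen after seeing the data. Medians of the gene lists were not run because no listed symbol matched. No paired analysis was possible because there is 1 library a group. Depth limits the lower end most, where 225 genes had a knockout footprint value under 5.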
